A study of Mus musculus with 6 samples.

Results

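The DNA replication machinery was described here as 40 genes of 34245 in the deposited expression values of 3 Dnmt3b+/− peripheral T-cell lymphomas (PTCL). The members were chosen by gene symbol, as subunits of the complexes that license origins, unwind DNA and copy it, and not by their measured values. All 40 symbols were found. They fall into 8 lists, which are the origin recognition complex, the licensing factors, the MCM helicase, its CMG partners, the DNA polymerases and primase, the sliding clamp and its loader, the flap nuclease and ligase, and replication protein A.

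The study concerned the DNA methyltransferase Dnmt3b in T-cell lymphomas of mice, with bisulfite sequencing beside RNA-seq. RNA-seq was performed on total RNA of 3 independent PTCL taken from lymph nodes of terminally sick mice. The mice were Dnmt3b+/−, with 1 wild-type allele and 1 conventional knockout allele made from Dnmt3b 2loxP mice, on the FVB/N background (strain FVB). Their age was not given for these samples. There was 1 group and no control library among the deposited values, so the comparisons below are between tumors, each a single library with no replicate of its own, and no test was made. The tumors are numbered as the authors numbered them and have no order.

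Values are FPKM, fragments per kilobase of merged exons, scaled to the depth of the library. The depth to which the values were scaled was 30726570, 18969988 and 20770928 reads for tumors 1, 2 and 3, and 20271212, 12486811 and 13697244 of these reads lay on genes. Genes with no read at all, 14475, 15711 and 16541 of them, were given the value of 0.9 read. Read numbers of a gene were recovered from its FPKM, its exon length and this depth. Members had between 78 reads (Gins1, tumor 2) and 6486 reads (Pcna, tumor 1). For 37 of the 40 members the recovered numbers were whole in every tumor within 0.05 read, and ratios of these carry an exact 95% interval (Clopper-Pearson). Cdc45, Rfc4 and Pola2 gave no whole numbers in at least 1 tumor and carry none. Intervals cover counting error only, not the spread between mice.

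The labelled cell type was checked against marker genes. All 10 genes of a CD8 T-cell list, among them Cd3e, Cd8a and Trac, were above the FPKM of 3 reads in every tumor, and their summed level was 1464, 1261 and 1571 FPKM in tumors 1, 2 and 3. Cd8b1, the most abundant of them by mean, had 435, 166 and 443 FPKM. The 4 genes of a CD4 T-cell list summed to 39.0, 8.12 and 16.4 FPKM, of which Cd4 itself had 28.4, 4.28 and 8.22, and 1 of the 4 was at or under the FPKM of 3 reads in tumor 2.

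Replication starts from origins that are licensed in G1 phase. The origin recognition complex, Cdc6 and Cdt1 load the ring of Mcm2 to Mcm7 on DNA, and geminin (Gmnn) holds Cdt1 back outside G1. In S phase Cdc45 and the GINS proteins join the ring to form the active CMG helicase, primase and polymerase alpha lay down primers, polymerases epsilon and delta extend them on the clamp Pcna, and Fen1 and Lig1 join the lagging strand. Most of these genes are transcribed around the entry into S phase under E2F transcription factors, and resting T cells switch many of them on when they begin to divide.

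All 40 members were expressed in all 3 tumors. The median over members was 10.6, 7.37 and 6.94 FPKM in tumors 1, 2 and 3, and the median of the means over tumors was 8.27 ± 2.01 (SD of the tumor medians, n = 3). By rank among all genes of the table, the median member stood at the 89.9th, 87.0th and 87.3th percentile, and the lowest rank was that of Orc1 in tumor 3, at the 71.5th percentile. The members summed to 608, 489.7 and 445 FPKM, which is 0.322%, 0.237% and 0.199% of all FPKM in tumors 1, 2 and 3. Tumor 1 thus had the largest share and tumor 3 the smallest.

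Tumor 1 had the highest value for 31 of the 40 members, against 50.5% of the 12735 genes with a mean of at least 0.5 FPKM (all genes tested). Tumor 2 had the highest value for 8 members (Mcm2, Cdt1, Gins2, Rfc3, Pold2, Fen1, Lig1 and Rpa2), against 34.1% of all genes tested, and tumor 3 for Pola1, against 15.4%. The count for tumor 1 was 36 with FPKM rescaled to a common sum, where 60.0% of all genes tested were highest in tumor 1, and 25 with median-of-ratios factors, where 39.7% were. Mcm2, Gins2, Fen1 and Lig1 were highest in tumor 1 with the rescaled FPKM and also with the trend of GC content and length removed, a setting chosen after the data were seen. With median-of-ratios factors Mcm5, Gins3, Gins4, Pola2 and Pold1 were highest in tumor 2 and Orc5 in tumor 3. The lowest value lay in tumor 3 for 22 members (55%, against 38.6% of all genes tested), in tumor 2 for 15 (37.5%, against 37.7%) and in tumor 1 for Cdt1, Pold2 and Rpa2 (7.5%, against 23.7%). In the order of levels, 17 members had tumor 1 above 2 above 3 (42.5%, against 21% of all genes tested) and 14 had tumor 1 above 3 above 2 (35%, against 29.5%). In bulk samples, fewer dividing cells and less RNA per cell cannot be told apart.

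**Figure D1:**
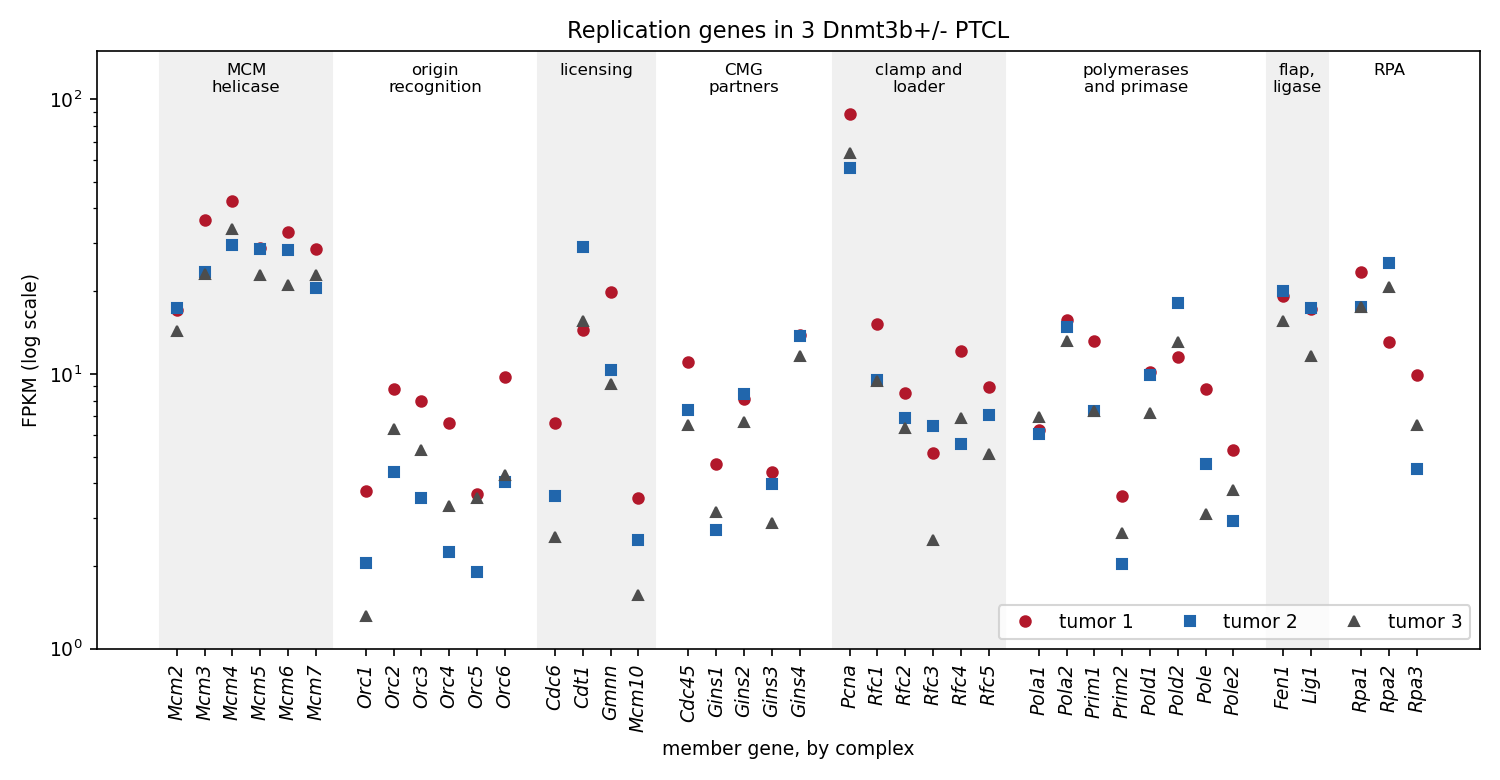
FPKM of each member (log axis) in tumors 1 (circles), 2 (squares) and 3 (triangles), with members grouped by complex. Pcna is the highest member in each tumor, at 88.0, 55.9 and 63.6 FPKM, and Orc1 in tumor 3 is the lowest point, at 1.31 FPKM.

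The promoters of the members were read for what they share in sequence. RefSeq promoter windows of build GRCm38.p6, 250 bases before to 50 after each transcription start, were found by symbol for 32 of the 40 members, with 40 windows between them. No window was listed for Mcm4, Gins1, Gins2, Gins4, Gmnn, Rfc2, Pole and Prim2. The words TTTCCCGC, TTTGGCGC, TTTGCCGC and TTTCGCGC, forms of the E2F recognition sequence, were searched on both strands. At least 1 of them stood in a window of 14 of the 32 members (43.8%), against 4.71% of the 8995 genes tested that have a window. By window, it was 35% of the members' windows, against 3.97% of the 11344 windows of genes tested and 2.26% of all 32851 windows. With the shorter words TTCCCGC and TTGGCGC, which are contained in the first pair of words above, the count was 19 of 32 (59.4%), against 14.1% of the genes tested. A match is a description of the letters, not a measured site.

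By complex, an E2F word was found for 4 of the 5 MCM subunits with a window, 2 of 6 subunits of the origin recognition complex, 2 of 3 licensing factors, 3 of 6 polymerase and primase subunits, 1 of 5 clamp and loader genes, 1 of 2 CMG partners, 1 of the pair Fen1 and Lig1, and 0 of 3 subunits of replication protein A. The word CCAAT, chosen after the expression values had been seen, was present on either strand for 21 of the 32 members (65.6%), against 42.5% of the genes tested. All 5 MCM subunits and all 3 subunits of replication protein A with a window had it. The GC box word GGGCGG, added at the same time, was present for 24 of 32 members (75%), against 67.5% of the genes tested. The members held 20 E2F words, 12 of them wholly before the start, and their first bases lay between 165 bases before and 39 after it. Of the 42 CCAAT words, 25 lay within 100 bases before the start.

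The upstream sequences of Mcm5 (chr8:75109339-75109508, plus strand), Mcm6 (chr1:128359706-128359875, minus strand) and Pola1 (chrX:93632156-93632325, minus strand) are shown in the direction of the gene because they hold E2F and CCAAT words together and no exon bases. Those of Gins3, Mcm7 and Orc1 also hold both kinds of word but include exon bases, and are not shown. Capitals mark both kinds of word, CCAAT reading ATTGG where it lies on the other strand. In Mcm5 and Mcm6 a TTTCGCGC and a TTTGGCGC on opposite strands overlap, which gives the longer run of capitals.
Mcm5: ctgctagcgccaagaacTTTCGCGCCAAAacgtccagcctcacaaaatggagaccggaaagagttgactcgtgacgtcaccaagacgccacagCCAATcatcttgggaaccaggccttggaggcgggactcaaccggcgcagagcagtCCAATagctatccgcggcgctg
Mcm6: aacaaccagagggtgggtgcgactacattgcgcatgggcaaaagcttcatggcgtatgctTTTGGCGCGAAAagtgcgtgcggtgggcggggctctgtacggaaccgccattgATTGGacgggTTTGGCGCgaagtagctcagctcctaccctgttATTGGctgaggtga
Pola1: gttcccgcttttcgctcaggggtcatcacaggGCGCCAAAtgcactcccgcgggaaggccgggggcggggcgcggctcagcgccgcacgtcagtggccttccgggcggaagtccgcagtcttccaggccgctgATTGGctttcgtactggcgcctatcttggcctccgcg

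Shorter windows of 30 bases around the E2F words, in capitals, are given for the 5 members with such a word whose levels differed by at least 2-fold between tumors, Orc1 (chr4:108579416-108579445, plus strand), Orc3 (chr4:34614965-34614994, minus strand), Cdc6 (chr11:98908002-98908031, plus strand), Cdt1 (chr8:122568035-122568064, plus strand) and Rfc3 (chr5:151651200-151651229, minus strand). The word of Cdc6 begins 138 bases, that of Orc3 41 bases and that of Orc1 27 bases before the start, that of Cdt1 32 bases after it. The Rfc3 window holds 2 words, the nearer to its left end beginning 10 bases before the start.
Orc1: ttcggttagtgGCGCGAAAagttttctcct
Orc3: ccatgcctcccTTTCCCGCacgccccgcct
Cdc6: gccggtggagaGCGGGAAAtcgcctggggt
Cdt1: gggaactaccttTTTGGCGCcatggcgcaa
Rfc3: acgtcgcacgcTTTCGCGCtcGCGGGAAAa

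**Figure D2:**
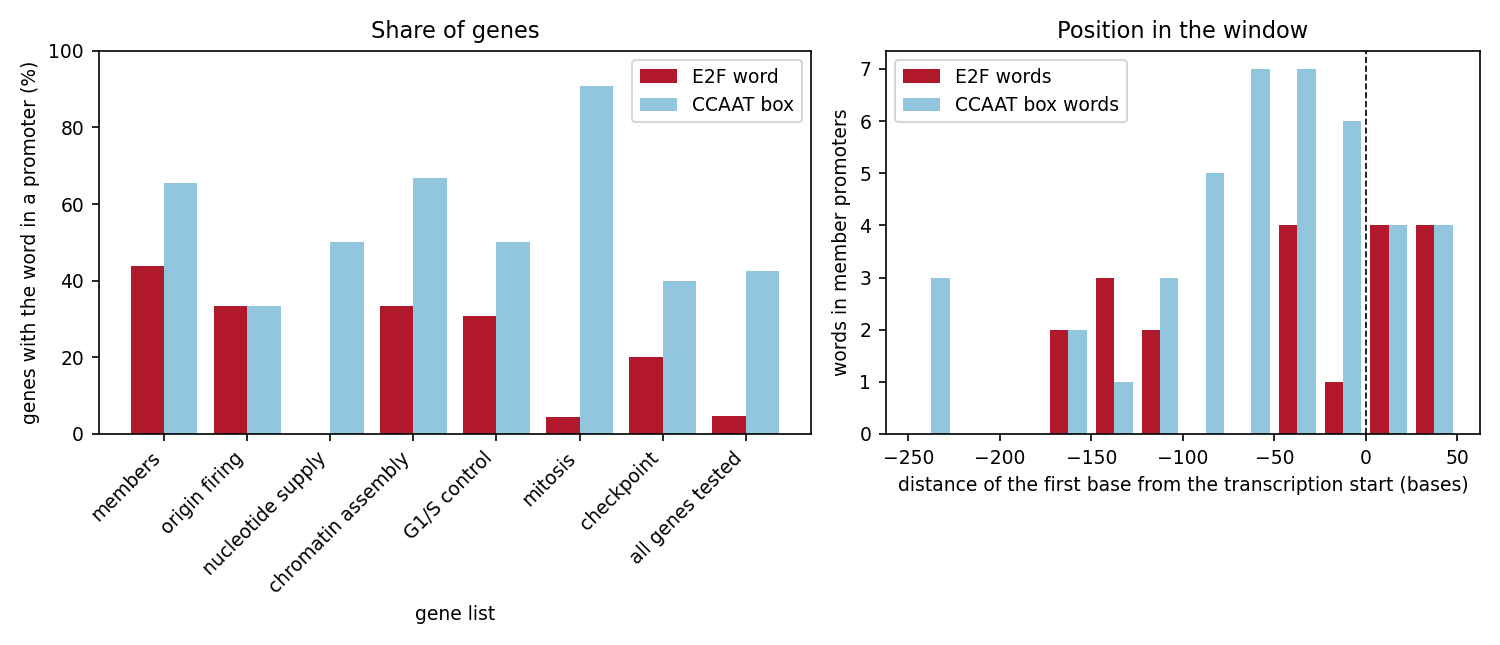
Left, the share of genes (%) with an E2F word (red) or CCAAT (blue) in a promoter window, for the members (43.8% and 65.6%), 6 other lists of the pathway and all genes tested (4.71% and 42.5%). Right, the number of words in members' windows by distance from the transcription start (bases, bins of 25), with the CCAAT words gathered in the 100 bases before it.

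Members with and without an E2F word had similar levels, with a median of 7.75 FPKM over 14 and 8.80 over 18. No test of a difference between these groups was made. The median log2 ratio of tumor 1 over tumor 2 was 0.18 with the word and 0.61 without, against 0.18 for all genes tested. That of tumor 2 over tumor 3 was 0.43 and 0.01, against 0.08. That of tumor 1 over tumor 3 was 0.58 and 0.54, against 0.26. On the values as deposited, tumor 1 had the highest value for 10 of the 14 and for 14 of the 18, against 50.5% of all genes tested. GC content moved with these ratios, as given below, and its part in the result was not tested.

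The origin recognition complex marks origins and is the platform for loading the helicase. It had the lowest median of the 8 lists, 7.30, 2.89 and 3.90 FPKM in tumors 1, 2 and 3. Orc2, a core subunit (ENSMUSG00000026037, chr1:58462771-58505109), was the highest by mean, with 8.84, 4.41 and 6.32 FPKM in tumors 1, 2 and 3. Of its exon bases, 29.8% are shared with Nif3l1 on the other strand. The strandedness of the libraries was not stated, so its level and its place as the highest are uncertain. Orc1, the ATPase subunit (ENSMUSG00000028587, chr4:108579423-108614833), was the lowest by mean, with 3.74, 2.05 and 1.31 FPKM. Tumor 1 was above both other tumors for each of these subunits.

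Orc1 was 2.85 times as high in tumor 1 as in tumor 3 (95% interval 2.27 to 3.60). Orc4 (ENSMUSG00000026761, chr2:48902824-48950277) had 6.62, 2.25 and 3.30 FPKM, and with tumor 1 at 2.93 times tumor 2 (2.60 to 3.32) it varied more than any other member on the values as deposited, though not with the GC trend removed. The intervals of both ratios lie above 1.5. Orc3, Orc5 and Orc6 lay between 3.67 and 9.77 FPKM in tumor 1, between 1.90 and 4.04 in tumor 2 and between 3.53 and 5.27 in tumor 3.

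All 6 subunits were at least 1.5-fold higher in tumor 1 than in tumor 2, against 31.2% of all genes tested, and 4 of 6 were so over tumor 3, against 28.8%. The median log2 ratio was 1.07 against tumor 2 and 0.79 against tumor 3, and it was 0.92 and 0.60 with median-of-ratios factors and 0.66 and 0.57 with the trend of GC content and length removed. With that trend removed all 6 were still higher in tumor 1 than in tumor 2, but only 4 by 1.5-fold or more, Orc3 having a log2 ratio of 0.45 and Orc5 of 0.18. Between the other tumors, 5 of the 6 subunits were higher in tumor 3 than in tumor 2, against 5716 of the 12735 genes tested. The median log2 ratio of tumor 2 over 3 was −0.52, and Orc1 was the exception. This order was lost when the trend with GC content and length was removed, which left a median of 0.01 and 3 of 6 subunits higher in tumor 2. Orc5 had nearly the same level in tumors 1 and 3, 3.67 and 3.53 FPKM, a ratio of 1.04 (0.922 to 1.17), and its direction turned with median-of-ratios factors and with the trend removed.

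The licensing factors did not move together. Cdc6, the ATPase that joins the origin recognition complex to load the helicase (ENSMUSG00000017499, chr11:98907801-98923940), had 6.63, 3.61 and 2.55 FPKM in tumors 1, 2 and 3. It was 2.60 times as high in tumor 1 as in tumor 3 (2.28 to 2.98). Mcm10, which helps to activate the loaded helicase and is not part of its ring (ENSMUSG00000026669, chr2:4989714-5012791), was the lowest of the list, with 3.55, 2.48 and 1.57 FPKM. For both genes the intervals of all 3 pairs of tumors lay away from 1, in the order tumor 1, 2, 3.

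Cdt1, which brings the helicase to the origin (ENSMUSG00000006585, chr8:122568015-122573554), had 14.4, 28.9 and 15.6 FPKM. It was the highest of the list by mean and stood highest in tumor 2, on all scalings tried. Its ratio of tumor 1 over tumor 2 was 0.499 (0.464 to 0.536) and that of tumor 2 over tumor 3 was 1.85 (1.71 to 2.01). Tumors 1 and 3 differed little, with a ratio of 0.925 (0.853 to 1.00) that turned above 1 with FPKM rescaled to a common sum and with the GC trend removed.

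Gmnn, the inhibitor of Cdt1 (ENSMUSG00000006715, chr13:24751845-24761923), had 19.8, 10.4 and 9.17 FPKM, and was highest in tumor 1. Tumor 1 stood at 1.91 times tumor 2 (1.67 to 2.19) and 2.16 times tumor 3 (1.89 to 2.48), while tumors 2 and 3 did not differ beyond counting error (1.13, 0.955 to 1.34). Cdt1 over Gmnn, a ratio within each tumor that no scaling of libraries changes, was 0.727, 2.78 and 1.70 (mean 1.74 ± 1.03, SD, n = 3). On FPKM as deposited, Gmnn RNA was thus above Cdt1 RNA in tumor 1 and below it in the others. With the GC trend removed, Cdt1 was no longer called 1.5-fold higher in tumor 2 than in tumor 1. Cdt1 has the higher GC content of the pair, 57.8% against 49.8%, and the part of GC content in this ratio was not tested.

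The MCM helicase was the most abundant complex. The median of its 6 subunits was 30.8, 25.8 and 22.9 FPKM in tumors 1, 2 and 3, which is 4.22, 8.94 and 5.88 times the median of the 6 subunits of the origin recognition complex in the same tumor. Mcm4 (ENSMUSG00000022673, chr16:15623897-15637400), a subunit of the catalytic side of the ring, was the highest subunit in every tumor, with 42.7, 29.6 and 33.7 FPKM. Mcm2 (ENSMUSG00000002870, chr6:88883474-88898780), which also binds histones, was the lowest in every tumor, with 17.1, 17.4 and 14.3 FPKM. The ring holds 1 copy of each subunit, and their RNA levels stayed close to each other.

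The highest subunit was 2.17 times the lowest on the means, and 2.50, 1.69 and 2.35 times in tumors 1, 2 and 3. The coefficient of variation over the 6 means was 23.6%, against 37.0% in the origin recognition complex. Mcm5 (ENSMUSG00000005410, chr8:75109569-75128439) varied little, with 28.7, 28.6 and 22.9 FPKM. On the values as deposited, tumors 1 and 2 did not differ beyond counting error in Mcm2 (0.978, 0.928 to 1.03) or in Mcm5 (1.01, 0.953 to 1.06). With median-of-ratios factors the log2 ratios of tumor 1 over tumor 2 were −0.19 for Mcm2 and −0.15 for Mcm5. Mcm3 had the largest difference among the subunits, tumor 1 being 1.57 times tumor 3 (1.48 to 1.66) and 1.55 times tumor 2 (1.46 to 1.64). Mcm3, Mcm6 and Mcm7 lay between 28.4 and 36.2 FPKM in tumor 1, between 20.5 and 28.2 in tumor 2 and between 21.1 and 23.1 in tumor 3.

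Tumor 1 was higher than tumor 3 for 6 of 6 MCM subunits, against 68.1% of all genes tested, and higher than tumor 2 for 5 of 6, against 58.8%, Mcm2 being the exception. With median-of-ratios factors Mcm5 was also higher in tumor 2, and with rescaling to a common sum or the GC trend removed all 6 were higher in tumor 1. At 1.5-fold, 1 of 6 subunits was called over tumor 2 (against 31.2% of all genes tested) and 2 of 6 over tumor 3 (against 28.8%). Both shares were 0% with median-of-ratios factors (against 24.9% and 21.1%) and 50% with FPKM rescaled to a common sum (against 37.0% and 44.6%). As deposited, the median log2 ratios of 0.35 and 0.33 lay 0.16 and 0.07 above those of all genes tested. With the GC trend removed these distances were 0.02 and 0.12, so the helicase lay close to all genes, and the pair of tumors with the smaller distance depended on the scale.

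The partners that turn the MCM ring into the CMG helicase are Cdc45 and the 4 GINS subunits. Gins4 (ENSMUSG00000031546, chr8:23226616-23237659) was the highest of them, with 13.8, 13.8 and 11.6 FPKM in tumors 1, 2 and 3. Gins1 (ENSMUSG00000027454, chr2:150905400-150931280) was the lowest by mean, with 4.70, 2.71 and 3.14 FPKM. Although GINS holds 1 copy of each subunit, the highest of the 5 means was 3.71 times the lowest.

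Gins4 was among the 5 least variable members. On the values as deposited, tumors 1 and 2 did not differ in it beyond counting error (1.01, 0.880 to 1.15). Gins1 was 1.73 times as high in tumor 1 as in tumor 2 (1.33 to 2.27), on 219 and 78 reads. Cdc45, Gins2 and Gins3 lay between 4.41 and 11.04 FPKM in tumor 1, between 3.97 and 8.47 in tumor 2 and between 2.88 and 6.70 in tumor 3. Cdc45 had the largest difference of these, 1.69 between tumors 1 and 3. The exons of Gins2 share 67.3% of their bases with the exons of Gse1 on the other strand, and since the strandedness of the libraries was not stated, its reads may include those of Gse1.

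All 5 CMG partners were higher in tumor 1 than in tumor 3, as 68.1% of all genes tested were (median log2 ratio 0.57, 2 of them at 1.5-fold or more, against 28.8% of all genes tested). The share at 1.5-fold was 0% with median-of-ratios factors (against 21.1%) and 60% with FPKM rescaled to a common sum (against 44.6%). With the GC trend removed it was 20% (against 27.4%). Against tumor 2 the median was 0.15 and became −0.00 with median-of-ratios factors. Tumor 1 over tumor 3 had the largest median of the 3 pairs on every scale, 0.54 with the GC trend removed.

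Polymerase alpha and primase make the primers. Pola1, the catalytic subunit of polymerase alpha (ENSMUSG00000006678, chrX:93304767-93632155), had 6.23, 6.04 and 6.95 FPKM in tumors 1, 2 and 3 and was the least variable member, its highest value being 1.15 times its lowest. It was highest in tumor 3, a place that went to tumor 1 with FPKM rescaled to a common sum and to tumor 2 with the GC trend removed. Pola2, the accessory subunit of the same enzyme (ENSMUSG00000024833, chr19:5940543-5964206), had 15.7, 14.9 and 13.2 FPKM, the highest mean of the polymerase list. Both subunits of polymerase alpha thus varied 1.19-fold or less between tumors.

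Prim2, the large primase subunit (ENSMUSG00000026134, chr1:33453810-33669795), was the lowest of the list, with 3.58, 2.03 and 2.64 FPKM. Tumor 1 was 1.76 times tumor 2 (1.51 to 2.06). Prim1, the catalytic primase subunit, differed in the same way, tumor 1 being 1.78 times tumor 2 (1.62 to 1.97) and 1.79 times tumor 3 (1.63 to 1.97). The primase subunits, but not the polymerase alpha subunits that bind them, were at least 1.5-fold higher in tumor 1 than in tumor 2, a call that both lost with the GC trend removed.

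Pole, the catalytic subunit of the leading strand polymerase epsilon (ENSMUSG00000007080, chr5:110286306-110337474), had 8.82, 4.70 and 3.08 FPKM. Tumor 1 was 2.86 times tumor 3 (2.63 to 3.11) and 1.88 times tumor 2 (1.75 to 2.02), which placed Pole next to Orc4 among the most variable members. Its accessory subunit Pole2 had the order tumor 1, 3, 2, so that Pole2 over Pole was 0.598 and 0.620 in tumors 1 and 2 and 1.23 in tumor 3. Subunits of 1 enzyme thus kept different proportions in tumor 3.

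Polymerase delta, which copies the lagging strand, had 10.2, 9.93 and 7.18 FPKM for its catalytic subunit Pold1 and 11.5, 18.2 and 13.1 for its accessory subunit Pold2. Pold2 was lowest in tumor 1, at 0.634 times tumor 2 (0.569 to 0.708). On the values as deposited, Pold1 did not differ between tumors 1 and 2 beyond counting error (1.03, 0.944 to 1.11). Pold2 over Pold1 was 1.13, 1.83 and 1.82 in the 3 tumors. These members were named after their values were seen. Both are among the most GC-rich members, and with the GC trend removed the log2 ratio of tumor 1 over tumor 2 was 0.75 for Pold1 and −0.05 for Pold2.

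Pcna, the clamp that holds polymerases on DNA (ENSMUSG00000027342, chr2:132249162-132253314), was the most abundant member in every tumor, with 88.0, 55.9 and 63.6 FPKM. It was 1.57 times as high in tumor 1 as in tumor 2 and 1.38 times as high as in tumor 3 (1.33 to 1.44). The processed pseudogene Pcna-ps2 had 7.28, 2.68 and 4.44 FPKM, so reads of closely related copies may count for or against Pcna. Pcna stood 9.84, 8.07 and 9.99 times above the median of the 5 loader subunits, a proportion that varied little (9.30 ± 1.07, SD, n = 3).

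The loader Rfc1 to Rfc5 opens the clamp around DNA. Rfc3, a small subunit (ENSMUSG00000033970, chr5:151642756-151651242), was its lowest member by mean, with 5.16, 6.44 and 2.48 FPKM. It was highest in tumor 2, at 2.60 times tumor 3 (2.18 to 3.10), and lowest in tumor 3, on 186 reads there. Rfc1, Rfc2, Rfc4 and Rfc5 lay between 8.51 and 15.2 FPKM in tumor 1, between 5.57 and 9.53 in tumor 2 and between 5.10 and 9.41 in tumor 3. Each of these 4 was highest in tumor 1, which leaves Rfc3 as the only loader subunit highest elsewhere. For clamp and loader together, 6 of 6 genes were higher in tumor 1 than in tumor 3 (median log2 ratio 0.74) and 5 of 6 than in tumor 2 (0.49), against 68.1% and 58.8% of all genes tested.

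Fen1, the nuclease that trims flaps of the lagging strand (ENSMUSG00000024742, chr19:10199132-10204169), had 19.3, 20.0 and 15.5 FPKM. Lig1, the ligase that seals the strand (ENSMUSG00000056394, chr7:13277283-13311433), had 17.2, 17.3 and 11.6 FPKM. On the values as deposited, neither differed between tumors 1 and 2 beyond counting error (0.963, 0.886 to 1.05 for Fen1 and 0.991, 0.927 to 1.06 for Lig1). The median log2 ratio of Fen1 and Lig1 was −0.03 as deposited, −0.19 with median-of-ratios factors and 0.23 with the GC trend removed. Both were lower in tumor 3, Lig1 with tumor 1 at 1.48 times tumor 3 (1.37 to 1.59). Of the exon bases of Fen1, 84.2% are shared with exons of Tmem258 and Gm10143 on the other strand, so its level is uncertain.

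Replication protein A covers single-stranded DNA as a trimer of Rpa1, Rpa2 and Rpa3, and its RNAs went in different directions. Rpa2 (ENSMUSG00000028884, chr4:132768332-132778752) was the highest by mean, with 13.1, 25.4 and 20.6 FPKM, and Rpa3 (ENSMUSG00000012483, chr6:8255936-8259173) the lowest, with 9.94, 4.50 and 6.53 FPKM. Rpa2 was lowest in tumor 1, at 0.515 times tumor 2 (0.477 to 0.556) and 0.633 times tumor 3 (0.585 to 0.686). Rpa3 was highest in tumor 1, at 2.21 times tumor 2 (1.76 to 2.80), but with the GC trend removed its log2 ratio was 0.18 and it was no longer 1.5-fold above either tumor. Rpa2 over Rpa1 was therefore 0.555, 1.45 and 1.18, although the protein is a complex with 1 copy of each subunit.

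Between pairs of tumors, 18 members were at least 1.5-fold higher in tumor 1 than in tumor 2, against 31.2% of all genes tested, and 3 (Cdt1, Pold2 and Rpa2) at least 1.5-fold lower, against 19.3%. Tumor 1 over tumor 3 gave 18 members, against 28.8%, and the opposite direction gave Rpa2, against 9.01%. Tumor 2 over tumor 3 gave 5 members (Orc1, Cdt1, Mcm10, Rfc3 and Pole), against 22.0%, and the opposite direction gave Orc5, against 13.6%. With the trend of GC content and length removed, 12 members (30%) were 1.5-fold higher in tumor 1 than in tumor 2, against 25.6% of all genes tested, and Rpa2 alone of the 3 lower members kept its call, with Rfc3 added. For tumor 1 over tumor 3 the count was then 17 (42.5%, against 27.4%). By counting error alone, tumor 1 was above tumor 2 for 24 of the 37 members with an interval, below it for 4 and not separable for 9 (all genes tested 48.5%, 30.3% and 21.2%). Against tumor 3 these numbers were 32, 3 and 2 (53.1%, 20.2% and 26.7%), and for tumor 2 against tumor 3 they were 18, 11 and 8 (37.7%, 30.4% and 31.8%).

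The median log2 ratio of the members was 0.51 for tumor 1 over tumor 2, 0.53 for tumor 1 over tumor 3 and 0.17 for tumor 2 over tumor 3. The medians of all genes tested were 0.18, 0.26 and 0.08, so that members lay 0.33, 0.27 and 0.10 above them. With FPKM rescaled to a common sum the medians of all genes tested were 0.32, 0.51 and 0.19, with median-of-ratios factors 0.03, 0.07 and 0.04. The distances of the members from them were then 0.34, 0.27 and 0.10, and 0.33, 0.27 and 0.09. Each rescaling multiplies all genes of a library by 1 factor, so these distances stayed nearly the same by construction. The number of members at 1.5-fold or more in tumor 1 over tumor 3 did depend on the scale, with 28 (70%, against 44.6% of all genes tested) and 11 (27.5%, against 21.1%) in place of the 18 above.

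**Figure D3:**
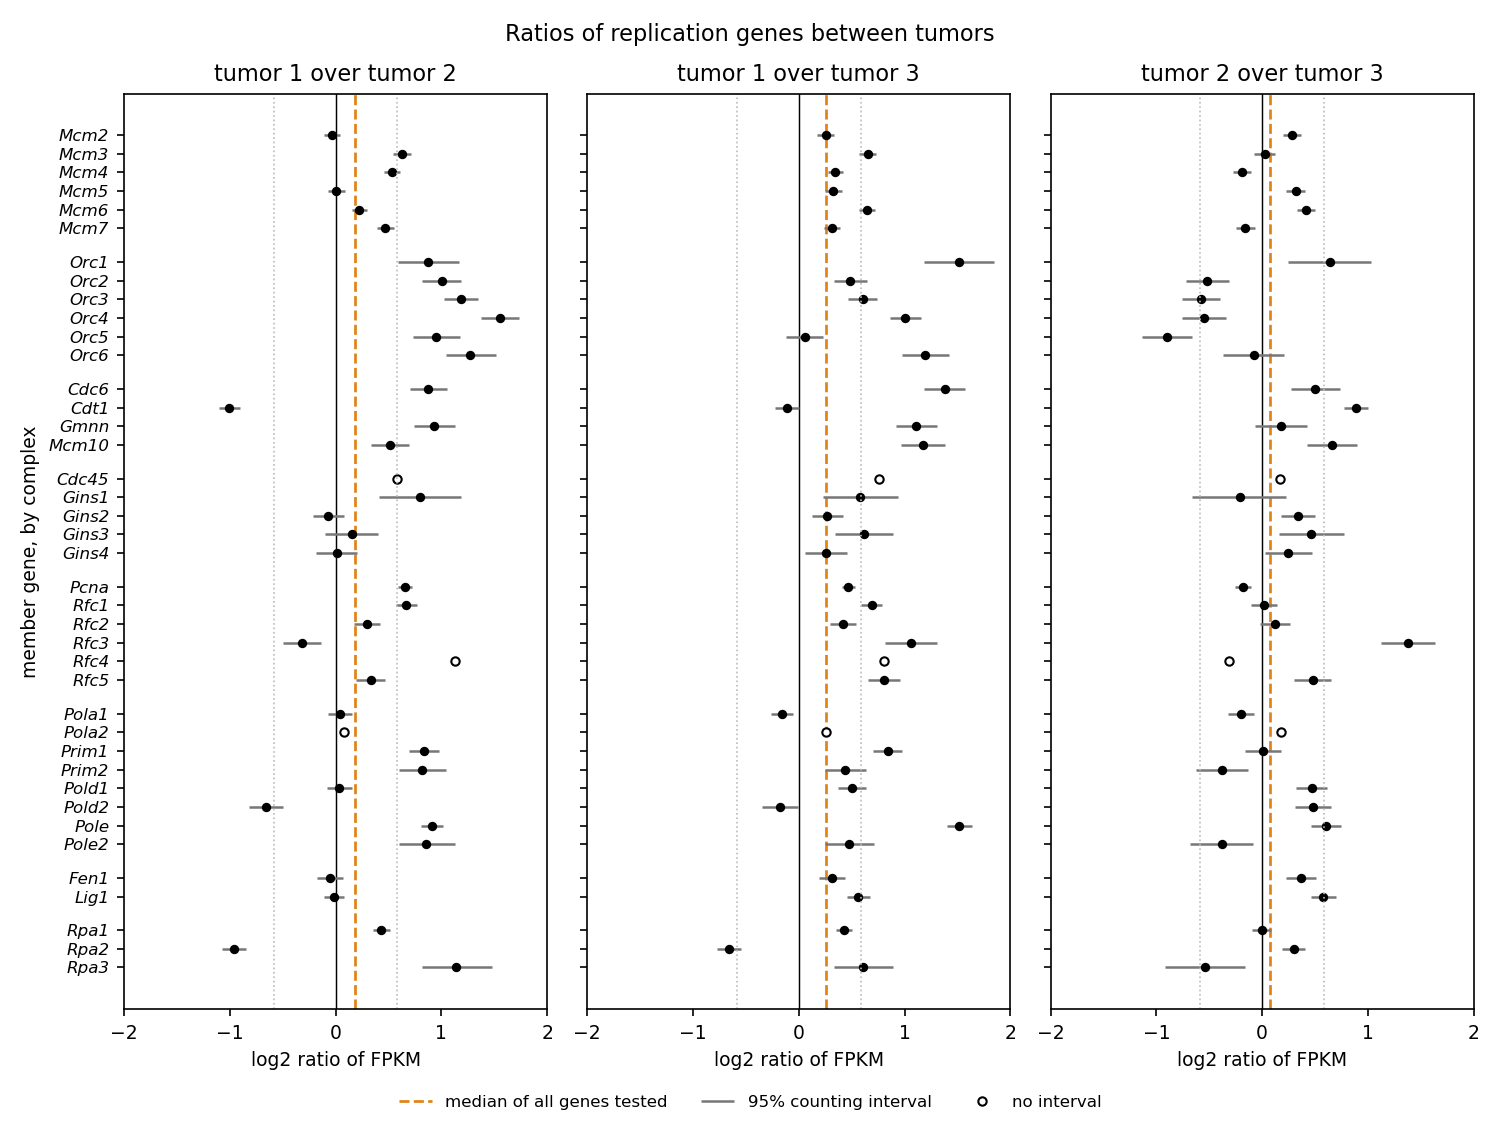
Log2 ratio of FPKM between pairs of tumors for each member, with 95% counting intervals (gray lines; open circles have none), the median of all genes tested (dashed) and 1.5-fold (dotted). The 6 subunits of the origin recognition complex lie right of 1.5-fold for tumor 1 over tumor 2. Of the 8 members left of 0 in that panel, Cdt1, Pold2 and Rpa2 lie beyond 1.5-fold, and they stay left of 0 with both rescalings. With the GC trend removed, which is not plotted, Cdt1 and Pold2 no longer reach 1.5-fold and Rfc3 does.

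Some members kept their level better than others. By FPKM without a pseudocount, the highest tumor was at least 2-fold above the lowest for 13 members, which are 5 subunits of the origin recognition complex (all but Orc5), all 4 licensing factors, Rfc3, Rfc4, Pole and Rpa3, against 38.7% of all genes tested. The smallest differences were those of Pola1 (1.15), Pola2 and Gins4 (1.19 each), Mcm2 (1.22) and Mcm5 (1.25). The median over the 40 members was 1.71, close to the 1.73 of all genes tested. The members therefore did not vary more between tumors than other genes, and tumor 1 was more often their highest.

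The GC content of a transcript moved with these ratios. Members had a median GC content of 48.3%, from 34.2% in Rpa3 to 61.0% in Pold1, and all genes tested 49.6%. Across the 40 members, Spearman's rho between GC content and the log2 ratio was −0.673 for tumor 1 over tumor 2, −0.29 for tumor 1 over tumor 3 and 0.658 for tumor 2 over tumor 3. Across 12708 genes tested it was −0.459, −0.196 and 0.379. Genes of a library share its depth and preparation and are not independent replicates, so no p is given.

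Over all genes tested the linear trend was −0.63, −0.17 and 0.47 log2 units per 10% GC for these pairs. With this trend and that of length removed, a setting chosen after seeing the data, 33 members were highest in tumor 1 (82.5%, against 52.3% of all genes tested) and the members' medians were 0.38, 0.41 and 0.16, which is 0.19, 0.17 and 0.10 above all genes tested. Of the AT-rich members, Rpa3 (34.2% GC) then had a log2 ratio of tumor 1 over tumor 2 of 0.18 in place of 1.13 and Orc4 (36.8%) 0.68 in place of 1.51. Of the GC-rich members, Cdt1 (57.8%) had −0.48, nearer to 0 than with the values as deposited. Members thus remained above other genes in tumor 1 with smaller distances, and the part of GC content in the differences was not tested.

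**Figure D4:**
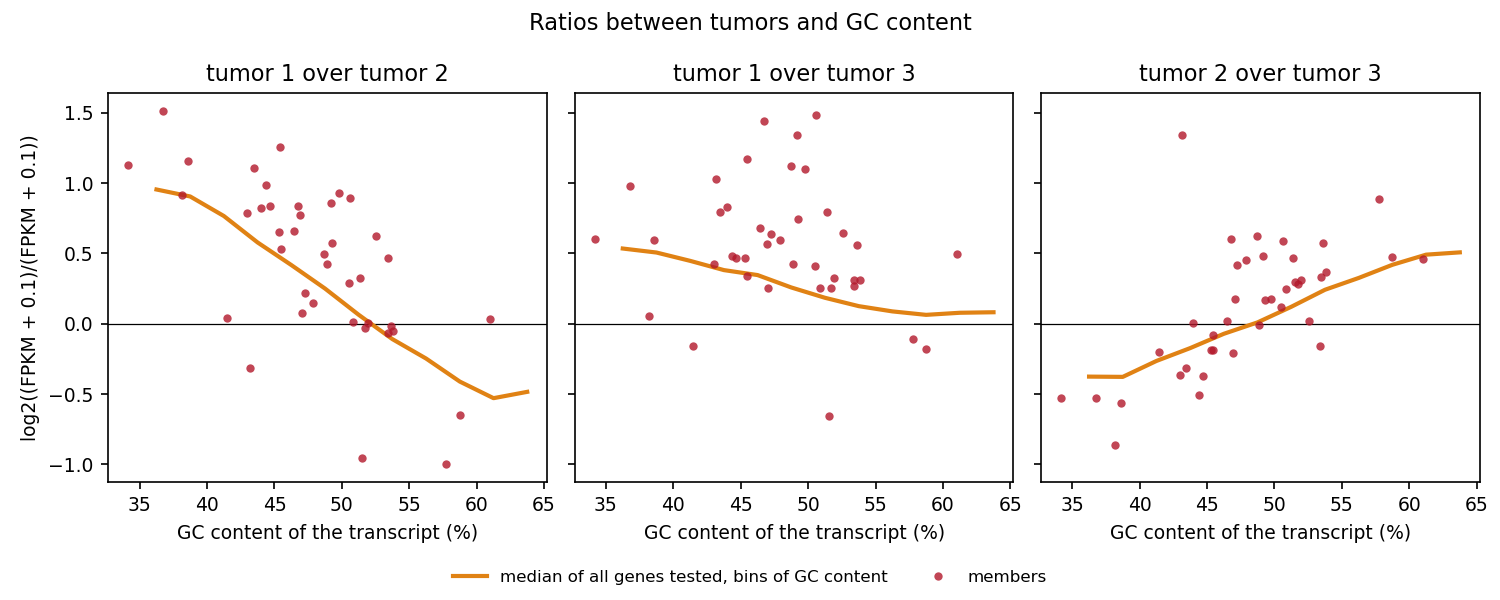
Log2 ratio between pairs of tumors against the GC content of the transcript (%), for members (points) and as the median of all genes tested in bins of 2.5% GC (line). For tumor 1 over tumor 2 the line runs from 0.95 in the bin from 35% to −0.48 in the bin from 62.5%, and Spearman's rho across the members is −0.673.

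The rest of the pathway was described with 7 further lists of 133 genes. Tumor 1 had the highest value for 110 of these (82.7%), against 50.5% of all genes tested, and for 93 (69.9%) with median-of-ratios factors, against 39.7%. As deposited the median log2 ratios were 0.54 over tumor 2 and 0.75 over tumor 3. Of the 15 origin firing and fork factors, 13 were highest in tumor 1, and 8 and 11 were at least 1.5-fold above tumors 2 and 3, against 31.2% and 28.8% of all genes tested. With the GC trend removed the share over tumor 2 was 20%, below the 25.6% of all genes tested, and that over tumor 3 was 60%, against 27.4%. Tipin, a fork protection factor, had 23.7, 11.2 and 15.0 FPKM in tumors 1, 2 and 3, and the MCM binding protein Mcmbp had 18.6, 11.9 and 15.3. Ticrr, needed to fire origins, had 1.94, 1.38 and 0.674 FPKM, and the checkpoint mediator Clspn had 7.85, 4.64 and 2.93. Both stood highest in tumor 1 and lowest in tumor 3, as Cdc6 and Mcm10 did.

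The 19 other polymerase, clamp and lagging strand factors had median log2 ratios of 0.18 and 0.26 over tumors 2 and 3, the same as all genes tested. Of these factors 13 (68.4%) were highest in tumor 1, against 50.5% of all genes tested. The clamp loading factor Chtf8 had 35.1, 41.0 and 40.5 FPKM, with 91.8% of its exon bases shared with another entry of the same symbol or with Has3, and the polymerase delta subunit Pold4 had 16.2, 30.1 and 27.8. Like Pold2, Pold4 was lowest in tumor 1. Dna2, a nuclease of the lagging strand, had 3.69, 1.51 and 0.966 FPKM, and Atad5, which unloads Pcna, had 7.66, 3.30 and 2.45.

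All 12 genes of nucleotide supply were highest in tumor 1, against 50.5% of all genes tested. With median-of-ratios factors 8 were (66.7%, against 39.7%). At 1.5-fold, 3 were above tumor 2 (25%, below the 31.2% of all genes tested) and 6 above tumor 3 (50%, against 28.8%). The share over tumor 2 depended on the scale. It was 58.3% with FPKM rescaled to a common sum (against 37.0%) and 16.7% with median-of-ratios factors (against 24.9%). Rrm2, the S-phase subunit of ribonucleotide reductase, had 41.4, 17.5 and 17.4 FPKM, and Samhd1, which degrades nucleotides, had 73.4, 69.8 and 39.4. Dck, a salvage kinase, had 23.7, 6.04 and 8.94 FPKM. Of 15 genes of chromatin assembly and maintenance methylation, 11 were highest in tumor 1 (73.3%, against 50.5% of all genes tested). Rbbp7 had 65.3, 78.5 and 86.8 FPKM, Ssrp1 49.8, 40.01 and 43.4, Hells 11.2, 3.83 and 5.04, and Nasp 9.77, 4.88 and 6.59. Dnmt1, the maintenance methyltransferase bound by Pcna at forks, had 31.7, 33.5 and 23.6 FPKM, and its partner Uhrf1 had 24.9, 26.2 and 17.5.

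Of 34 genes of G1/S control, 24 were highest in tumor 1 (70.6%, against 50.5% of all genes tested). E2f1, an activator of replication genes, was even, with 5.39, 5.47 and 5.19 FPKM. Ccnd2 had 32.4, 25.4 and 52.4 FPKM and Cdk4 had 35.0, 28.7 and 33.3. The inhibitor gene Cdkn2a had 7.22 and 9.08 FPKM in tumors 1 and 3 and 0.0900 in tumor 2, on 2 reads there (tumor 1 over tumor 2 of 80.3, 22.0 to 666). Myb had 1.56, 7.45 and 0.631 FPKM and was highest in tumor 2, as Cdt1 was.

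Genes of mitosis separated the tumors more than the 40 members did as a set. The origin recognition complex alone had a larger median for tumor 1 over tumor 2 (1.07) than mitosis. All 25 mitosis genes had the order tumor 1, 2, 3, against 17 of the 40 members (42.5%) and 21% of all genes tested. Their median log2 ratios were 0.71 (tumor 1 over 2), 1.67 (1 over 3) and 0.70 (2 over 3). The medians of all genes tested were 0.18, 0.26 and 0.08. Mki67 had 38.7, 30.4 and 12.0 FPKM and Top2a 42.8, 17.3 and 11.8, while Birc5 had 21.5, 5.67 and 4.005 and Hmmr 6.57, 2.11 and 1.44. With median-of-ratios factors 24 of the 25 were highest in tumor 1 (96%, against 39.7% of all genes tested). An E2F word was found in 1 of the 22 mitosis genes with a promoter window (against 4.71% of the genes tested), and CCAAT in 20 of 22 (against 42.5%). In other pathway lists an E2F word was found for 33.3% of origin firing and fork factors and 33.3% of chromatin assembly genes. It was found for 30.8% of G1/S control genes, 28.6% of the other polymerase list, 20% of checkpoint genes and 0% of nucleotide supply genes. Of 13 checkpoint genes, 12 were highest in tumor 1 (92.3%, against 50.5% of all genes tested). With the GC trend removed 9 were (69.2%, against 52.3%). The share at 1.5-fold over tumor 2 was 30.8% as deposited (against 31.2%) and 0% with the trend removed (against 25.6%). Rad9a had 20.8, 20.7 and 20.0 FPKM, Atm 10.1, 8.56 and 8.70 and Brca2 2.14, 1.14 and 0.790. A reference list of 14 housekeeping genes had 5 highest in tumor 1, against 50.5% of all genes tested.

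**Figure D5:**
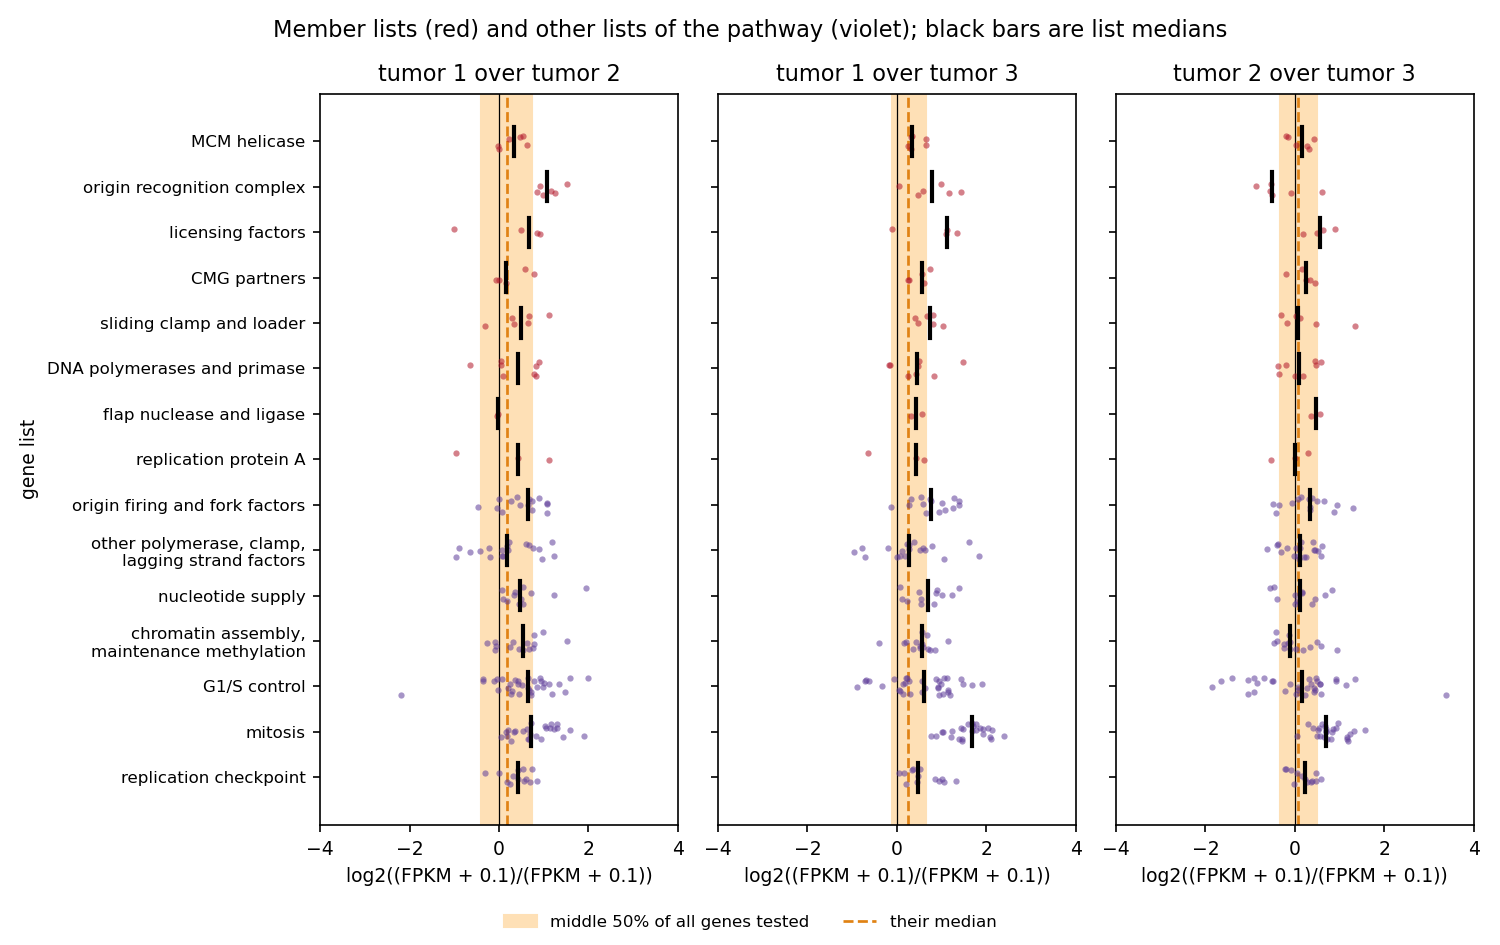
Log2 ratios between pairs of tumors for the 8 member lists (red) and 7 pathway lists (violet), each point a gene and each black bar a list median, over the median (dashed) and the middle 50% (shaded) of all genes tested. For tumor 1 over tumor 3 the mitosis median is 1.67 and that of all genes tested 0.26, and the origin recognition complex has 1.07 for tumor 1 over tumor 2 and −0.52 for tumor 2 over tumor 3, which is 0.01 with the GC trend removed.

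Markers of other cells also differed between the tumors. Of 9 myeloid markers 8 were highest in tumor 1, with sums of 438, 136 and 51.0 FPKM in tumors 1, 2 and 3, led on the means by Lyz2 (215, 33.1 and 20.3), and 1 of the 9 was at or under the FPKM of 3 reads in tumor 2. All 5 erythroid markers above that limit in any tumor were highest in tumor 1, with sums of 202, 38.4 and 4.76, led by Hba-a1 (92.3, 19.6 and 1.90). Plasma cell markers summed to 862, 199 and 217, with Jchain at 814, 185 and 179 (2 of 4 highest in tumor 1), and B-cell markers to 61.3, 14.5 and 109.7, with Cd79a at 23.1, 7.31 and 49.0 (1 of 7). Myeloid and erythroid markers were thus mostly highest in tumor 1, while plasma cell markers were divided, Mzb1 having 11.004, 2.62 and 25.8 FPKM. Of the exon bases of Mzb1, 57.2% are shared with SPATA24, so its level is uncertain.

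In tumor 2, where Cdt1, Rpa2 and Pold2 were highest, all 10 pancreatic acinar markers above the FPKM of 3 reads in any tumor were highest, with sums of 95.7, 493 and 0.760. Ctrb1 led them with 33.9 and 198 FPKM in tumors 1 and 2 and no read in tumor 3, and Ptf1a, the remaining gene of the list, had no read in any tumor. In tumor 3 only 2 acinar markers were above that limit. Stromal and endothelial markers summed to 23.1, 53.6 and 5.35 (6 of 8 highest in tumor 2; Pecam1 12.2, 10.9 and 4.86), with 4 of 8 above that limit in tumor 3. NK-cell markers summed to 464, 740.0 and 137 (3 of 4 highest in tumor 2), of which Gzmb, also a gene of cytotoxic T cells, had 463, 702 and 134. Tumor 3 was lowest in the sums of the myeloid, erythroid, acinar, stromal and NK-cell lists. The part of these cells, and of the depth of the libraries, in the differences among the members was not tested.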

How the data were processed

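The FPKM values were made and deposited by the authors, who aligned reads to mm10 with STAR and quantified them over merged exons with SeqMonk, on a linear scale. They were used as deposited. Of genes that share a symbol, that of highest mean FPKM was taken. Library depth was found from the value that genes with no read hold, and reads per gene from exon lengths of GENCODE M21. No count model was fitted, because the values are FPKM. Log2 ratios carry a pseudocount of 0.1 FPKM, genes tested have a mean of at least 0.5 FPKM, and a difference was counted at 1.5-fold. The log2 ratios and the 1.5-fold calls were also run on simulated reads with known folds. The other steps were not run on simulated data.

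The members come from the choice of topic, and the pathway, marker and housekeeping lists were drawn up with earlier results from these data known. Values in every tumor are given for the highest and lowest member of each of the 8 lists, the 5 members with the largest and the 5 with the smallest ratio of highest to lowest tumor, Cdt1 and Gmnn, in each of 7 pathway lists the 2 highest genes and the 2 that varied most, Dnmt1, Uhrf1, E2f1, Mki67, Top2a and Rrm2, and the most abundant gene of each marker list, though not every gene that meets this rule is printed. Other genes were named after their values were seen.

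Alternatives were FPKM rescaled to a common sum, median-of-ratios factors, pseudocounts of 1 and 0, a fold of 2, a mean of at least 1 FPKM, repeated symbols summed and leaving out 1 tumor. Some alternatives were chosen after seeing the data. They were removal of the trend with GC content and length, and leaving out tumor 2 or 3 for the count highest in tumor 1. Leaving out members that share at least 10% of their exon bases with other genes was also chosen then. Promoters are those of RefSeq. The bisulfite samples and the control and Dnmt3a RNA-seq libraries were not analysed here. The work was done in Python 3.11 with SciPy 1.17.1 and NumPy 2.4.6, tables were read with pandas 2.3.3, and plots were drawn with matplotlib 3.10.9.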

Additional observations from a re-analysis of the deposited data

How the results depend on the processing

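With a fold of 2 in place of 1.5, and the pseudocount kept, which leaves Orc2 and Cdt1 just short of it, 5 members were higher in tumor 1 than in tumor 2, 0 in tumor 2 than in tumor 1, 7 in tumor 1 than in tumor 3, 0 in tumor 3 than in tumor 1, 1 in tumor 2 than in tumor 3 and 0 in tumor 3 than in tumor 2. A stricter fold can only lower these counts, and they stand without the share of all genes tested at that fold. With FPKM rescaled to a common sum, 28 members were at least 1.5-fold higher in tumor 1 than in tumor 3, and 0 the reverse. The 28 are 70% of members, against 44.6% of all genes tested. On that scale 9 were higher in tumor 2 than in tumor 3 (22.5%, against 27.0% of all genes tested). The median FPKM was then 40.9, a change of unit, since tumors 1, 2 and 3 were multiplied by 5.298, 4.833 and 4.469. With median-of-ratios factors the count was 11 for tumor 1 over 3 (27.5%, against 21.1% of all genes tested). It was 3 for tumor 2 over 3 (7.5%, against 20.8%). For tumor 3 over 2 it was 2, given without the share of all genes tested. A pseudocount of 1 FPKM left 2 for tumor 2 over 3, also without that share. The trend of GC content and length was removed as well, a setting chosen after seeing the data. Then 3 were higher in tumor 2 than in tumor 3 (7.5%, against 20.9% of all genes tested) and 0 the reverse. For the counts with the scales and the trend the cause was not tested.

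Of the main results, 68 other values stayed the same by the limits set (1.5 times for counts, the SD between tumors for the rest). Of log2 ratios of single members 339 stayed and 21 moved, all with the trend removed. None of those called turned its direction, but with the trend removed 8 of the 18 members called in tumor 1 over tumor 2 lost the call (2 gained it), as did 2 of the 3 in the reverse direction (Cdt1 and Pold2) and 3 of the 18 in tumor 1 over tumor 3. Leaving out 1 tumor, the median FPKM ranged from 7.15 to 9.03 and the highest over the lowest MCM subunit from 1.99 to 2.435, and without tumor 2 or 3 the members highest in tumor 1 numbered 36 or 32.

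The main limits are 3 tumors without replicate libraries, 1 group without a control, unknown strandedness and values that move with GC content. Unknown strandedness makes uncertain the 8 members that share at least 10% of their exon bases with other genes. Some other members overlap by less. Comparisons between pairs of tumors share libraries and are not independent.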
